A study of Mus musculus with 6 samples.

Results

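The transcripts described here encode 9 chaperones of the endoplasmic reticulum (ER), and they were examined in pachytene and diplotene spermatocytes (P/D spermatocytes) and in round spermatids (RS) of the mouse testis. Members were the contigs, that is the reference transcripts to which reads were assigned, whose gene symbol was Clgn, Calr3, Pdilt, Calr, Canx, Pdia3, Pdia6, Hspa5 or Hsp90b1. This gave 13 of the 11517 annotated contigs, 9 of 7200 genes and 4199 reads. Clgn, Calr3 and Pdilt are testis-specific and account for 5 contigs, while the other 6 genes are expressed in most tissues and account for 8.

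Membrane and secreted proteins of sperm fold in the ER before they reach the cell surface. Calnexin (Canx) and calreticulin (Calr) bind glycoproteins through their sugar chains and pass them to the disulfide isomerase Pdia3, while Hspa5 (BiP) and Hsp90b1 (GRP94) bind folding chains directly and Pdia6 rearranges disulfide bonds. Male germ cells also make relatives of these proteins, namely calmegin (Clgn, related to calnexin), calreticulin 3 (Calr3, or calsperin) and the disulfide isomerase-like Pdilt, which are known for the maturation of the ADAM proteins that sperm need to pass from the uterus into the oviduct and to bind the egg coat.

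The 6 samples came from adult male mice of the C57BL/6J/B6 genotype without further treatment, 3 of P/D spermatocytes and 3 of RS. Each was a pool of mRNA from 3 mice, and the study's reporting summary states that the germ cell types came from the same animals. Cells were sorted by DNA staining with Hoechst and by light scatter, and dead cells were excluded with propidium iodide. According to the paper the P/D gate is less pure than the RS gate, and a large part of its cells were not P/D spermatocytes. Values given for P/D spermatocytes are those of the whole gate. Poly(A) RNA was read directly through nanopores, so that each read was 1 RNA molecule with the estimated length of its own tail in nucleotides (nt), and read numbers need no correction for transcript length. The samples of each cell type were barcoded into 1 library per cell type, so library and cell type cannot be told apart.

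The samples held 244004 to 474688 reads, and the median tail over all reads was 91.2 to 94.1 nt in P/D spermatocytes and 156 to 160.3 nt in RS. Of the fixed marker lists, the 6 round spermatid genes took 0.0122% to 0.0239% of reads in P/D samples and 0.203% to 0.212% in RS, and the 6 elongating spermatid genes 0.163% to 0.216% and 2.09% to 2.58%. The 6 P/D genes took 0.129% to 0.138% of P/D reads and 0.109% to 0.122% of RS reads, although 2 of them were higher in RS by the edgeR test, and the 2 measured leptotene and zygotene genes took 0.0418% to 0.0527% and 0.0073% to 0.0118%. Of 6 Sertoli and 6 Leydig cell genes 1 each was measured, with 0 to 1 and 1 to 7 reads per sample, and none of the 6 spermatogonial genes was measured.

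The promoter and the end of the transcript are shown first, because the general chaperones are known as a group that responds together to ER stress, and because the tail is added at the transcript's end. The ER stress response element (ERSE) is the sequence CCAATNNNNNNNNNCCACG, where N is any base, and it was searched on both strands of 300 bases per promoter, 250 before and 50 after the start, in RefSeq promoters of GRCm38.p6. Promoters were listed for 8 of the 9 members, all but Clgn, and 5 of these 8 genes held the ERSE, against 37 of all 27025 genes (0.137%) and 11 of the 5522 measured genes with a promoter (0.199%). The sites are given 5′ to 3′ in the orientation of the motif, with the fixed bases in capitals.
Hspa5 (chr2:34772025-34772043, + strand): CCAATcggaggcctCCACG
Calr (chr8:84847075-84847093, + strand, opposite to the gene): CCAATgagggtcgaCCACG
Hsp90b1, far site (chr10:86705638-86705656, - strand): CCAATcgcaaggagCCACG
Hsp90b1, near site (chr10:86705533-86705551, + strand, opposite to the gene): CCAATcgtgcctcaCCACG
Canx (chr11:50325800-50325818, - strand): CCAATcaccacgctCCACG
Pdia6 (chr12:17266491-17266509, + strand): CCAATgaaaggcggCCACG

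All 5 genes with the element were general chaperones, and Hsp90b1 held it at 2 positions. No match was found in the windows of Pdia3, Calr3 and Pdilt. The related ERSE-II, ATTGGNCCACG, was in 0.0365% of promoters and the cyclic AMP response element TGACGTCA in 1.79%, and neither was in the window of a member. An exact match of letters is a description of the window and does not show that a factor binds there.

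The poly(A) signal AATAAA lay in the last 50 nt of 8 of the 13 contigs (61.2% of the 11297 annotated contigs of at least 100 nt in GENCODE vM21), and ATTAAA without AATAAA in the last 50 nt of 2 (14.6%). Windows around the signal, which is in capitals, are shown on the transcript's strand for the 3 testis-specific genes and for the general chaperones with the largest and the smallest change in mean tail, Hsp90b1 and Pdia3.
Clgn, long 3′UTR (chr8:83428520-83428545, + strand): cattttccctAATAAAagataaatat
Clgn, short 3′UTR (chr8:83426799-83426824, + strand): ttgaatttagAATAAAagaaaagtgg
Calr3 (chr8:72424180-72424205, - strand): tattttcatgAATAAAagatgataaa
Pdilt (chr7:119486595-119486620, - strand): ggggttagacAATAAAgccttgtgag
Hsp90b1 (chr10:86690845-86690870, - strand): tgtgtataaaAATAAAaaaagatccc
Pdia3 (chr2:121438647-121438672, + strand): ttttgaatggATTAAAgtattgccct

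All windows lie in the last exon, within the 3′UTR, on GRCm38. The 3 testis-specific genes and Hsp90b1 carried the more frequent hexamer, and Pdia3 the variant. Among the 13 contigs, TTTTAT, the core of the cytoplasmic polyadenylation element, was in the last 100 nt of the long Clgn contig, of Pdia3 and of the short Hspa5 contig, against 12% of all contigs. Neither hexamer was in the last 50 nt of the Calr contig or of the 2 Hspa5 contigs.

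Tails were compared first, as the mean tail of each gene in each sample, pooling the reads of all its contigs. The mean tail was longer in RS for 5 of the 9 genes (Clgn, Calr, Hspa5, Hsp90b1 and Pdia6) by limma with Benjamini-Hochberg adjustment over 5367 genes at an adjusted p of 0.05, and shorter for 0. Over all genes tested, 54.9% were longer and 2.12% shorter in RS, so the share of members was close to the background. Among the members the difference ran from 85.9 nt in Hsp90b1 through values near 0 in Pdilt to -65.2 nt in Calr3, the last on 2 P/D reads and not called. In cells sorted in bulk, a change in the cells present and a change within cells cannot be told apart.

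**Figure D1:**
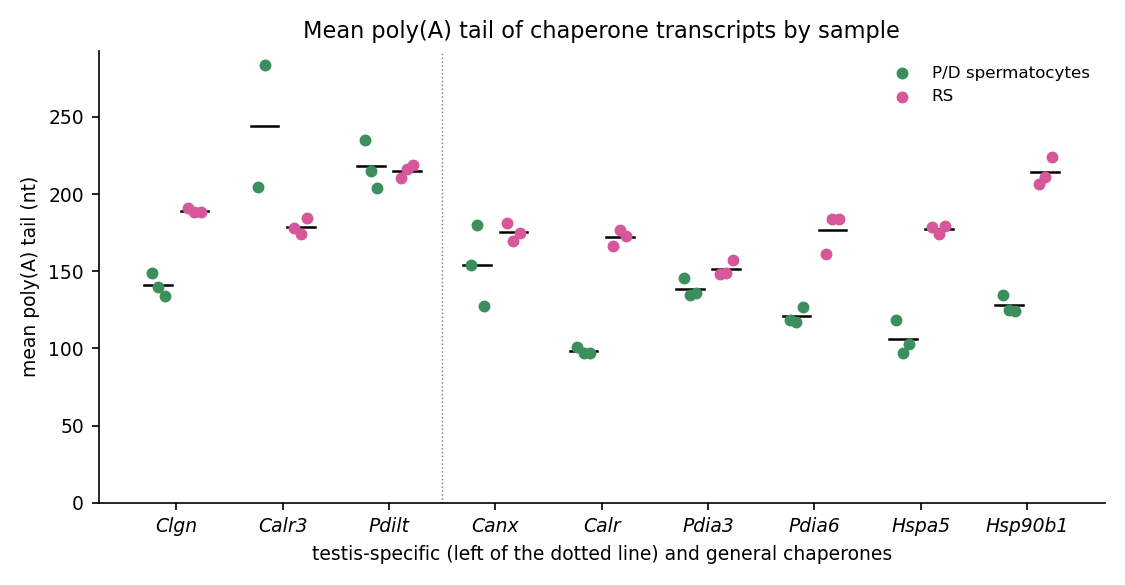
Mean poly(A) tail in nt (vertical axis, from 0) of each chaperone gene in the 3 P/D samples (green) and the 3 RS samples (pink), with the group mean as a black line. The RS samples of Clgn, Calr, Pdia6, Hspa5 and Hsp90b1 lie well above their P/D samples, whereas Pdilt lies above 200 nt in both cell types. The P/D points of Calr3 are 1 read each and those of Pdilt 2 to 4 reads.

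Clgn is the testis relative of calnexin, and it spans chr8:83389867-83428552 on the + strand of GRCm38, the build of all positions here. Its mean tail in P/D replicates 1 to 3 was 149, 139.6 and 134 nt, and in RS replicates 1 to 3 it was 191, 188 and 188 nt. The RS samples all lay above the P/D samples, and the RS samples differed by less than 3 nt. The mean rose from 141 ± 7.55 nt to 189 ± 1.55 nt (SD, n = 3), a difference of 48.3 nt (SE 5.72, limma, adjusted p = 0.000708).

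Calr3, the testis relative of calreticulin, lies at chr8:72424176-72443870 on the - strand and had 1, 1 and 0 reads in P/D spermatocytes, with tails of 205 and 284 nt. In RS it had 8, 33 and 24 reads with mean tails of 178, 174 and 185 nt. Calr3 entered the test through its RS reads, and the difference of -65.2 nt (SE 23.5, limma, adjusted p = 0.0652) rests on 2 P/D reads. Pdilt, the testis relative of the disulfide isomerases, lies at chr7:119486587-119523489 on the - strand and had mean tails of 235, 215 and 204 nt in P/D samples, over 3, 4 and 2 reads. In RS, over 46, 72 and 58 reads, the means were 211, 216 and 219 nt. The groups overlapped, with a difference of -3.0 nt (SE 8.85, limma, adjusted p = 0.798), and Pdilt too entered the test through RS. Without P/D replicate 1 the difference was 5.53 nt (adjusted p = 0.487). The P/D samples also held reads of the 6 round spermatid marker genes, of which 0 changed in tail length by the same test (median difference 3.11 nt), and the part of such reads in the P/D values of Pdilt and Calr3 was not tested.

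Canx and Calr are the general lectin chaperones. Calr, at chr8:84841850-84846934 on the - strand, had mean tails of 101, 97.2 and 97.1 nt in P/D spermatocytes, the lowest group mean of the 9 genes there (98.5 ± 2.39 nt, SD, n = 3). In RS its means were 166, 177 and 173 nt. The groups were far apart, and the tail rose by 73.5 nt (SE 5.22, limma, adjusted p = 0.000246). Canx, at chr11:50293961-50325673 on the - strand, had means of 154, 180.3 and 127 nt over 15, 22 and 23 P/D reads and 182, 169 and 175 nt over 20, 36 and 22 RS reads. P/D replicate 2 was as high as the RS samples, so the groups overlapped, and the difference was 21.5 nt (SE 13.5, limma, adjusted p = 0.224). Without that replicate it was 34.7 nt (adjusted p = 0.0291), without P/D replicate 3 it was 8.24 nt (adjusted p = 0.509), and with tails of 10 to 300 nt alone it was 31.2 nt (adjusted p = 0.0461).

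Hspa5 and Hsp90b1 are the ER members of the HSP70 and HSP90 families. Hsp90b1, at chr10:86690840-86705509 on the - strand, had mean tails of 135, 125 and 125 nt in P/D spermatocytes and 207, 211 and 224 nt in RS. The difference of 85.9 nt (SE 6.77, limma, adjusted p = 0.000252) was larger than that of 97.6% of the 5367 genes tested. With tails of 10 to 300 nt alone it was 70.9 nt, below that of Calr (72.9 nt). Hspa5, at chr2:34771970-34777547 on the + strand, had means of 118, 96.9 and 103 nt in P/D spermatocytes and 179, 174 and 179.6 nt in RS. In both genes the RS samples all lay above the P/D samples, and Hspa5 rose by 71.4 nt (SE 6.93, limma, adjusted p = 0.000366).

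The disulfide isomerases Pdia6 and Pdia3 differed in their values. Pdia6, at chr12:17266545-17284770 on the + strand, had mean tails of 118, 117 and 127 nt in P/D spermatocytes and 161, 184 and 184 nt in RS. It rose by 55.8 nt (SE 7.96, limma, adjusted p = 0.00148), and the groups were apart. Pdia3, at chr2:121413775-121438687 on the + strand, had means of 146, 135 and 136 nt in P/D spermatocytes and 148, 149 and 158 nt in RS. The groups did not overlap, but the difference of 13 nt (SE 5.74, limma, adjusted p = 0.10) did not pass. It passed among genes with at least 20 reads in every sample (adjusted p = 0.0257) and with means weighted by reads (13.6 nt, adjusted p = 0.0107), but the difference was 2.66 nt with the median tail (adjusted p = 0.774) and 6.17 nt with tails of 10 to 300 nt (adjusted p = 0.345).

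The spread among single molecules differed from gene to gene. In RS, the middle 50% of reads, pooled over the 3 samples, spanned 163 to 211 nt for Clgn and 181 to 244 nt for Pdilt. For Pdia3 the same range was 89.2 to 198 nt in RS, against 94.5 to 180.1 nt in P/D spermatocytes, so its range in RS reached both lower and higher than in P/D. The 10th percentile of Clgn in RS, 144 nt, lay above its median in P/D spermatocytes, 140.4 nt. Reads of the same sample are not replicates, and these ranges carry no test.

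**Figure D2:**
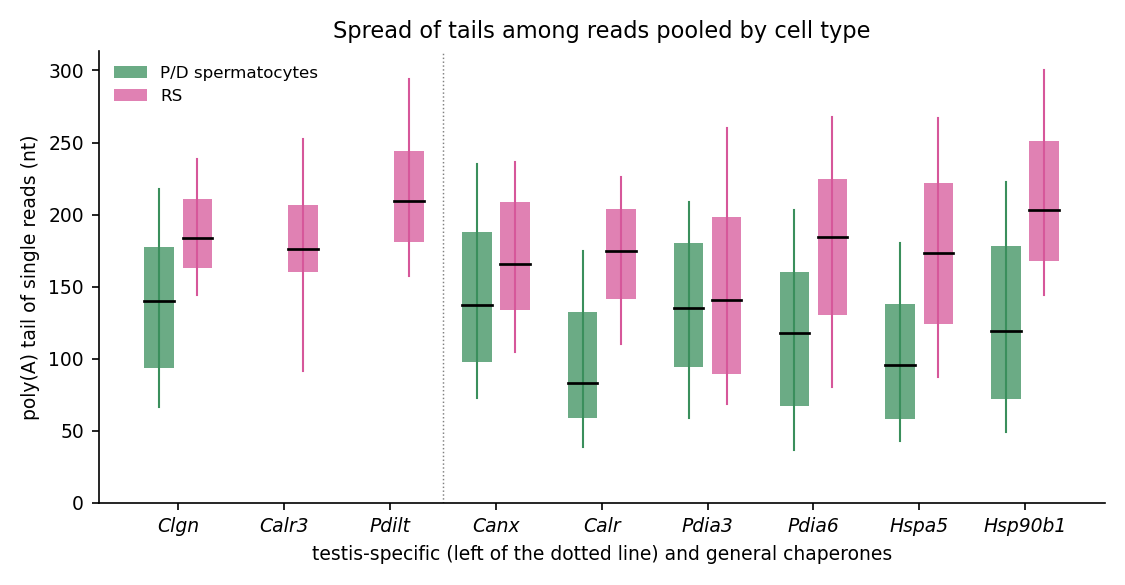
Poly(A) tail of single reads in nt (vertical axis, from 0), pooled over the 3 samples of each cell type, with boxes from the 25th to the 75th percentile, black lines at the median and thin lines from the 10th to the 90th percentile. The RS box of Clgn is narrow (163 to 211 nt) and that of Pdia3 is wide (89.2 to 198 nt), and genes with fewer than 10 reads in a cell type (Calr3 and Pdilt in P/D spermatocytes) have no box there.

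The study's methods divide tails into classes of 30 to 120 nt and of 120 to 210 nt, the latter around the tail length most frequent in RS. For 4 of the 8 genes with reads in all samples (Clgn, Calr, Hspa5 and Hsp90b1) the share of reads with tails of 120 to 210 nt was higher in every RS sample than in every P/D sample, against 80.3% of the 2879 genes that had 10 or more reads in all samples, as 7 of the members did. With 3 samples a group, the smallest exact two-sided permutation p is 0.1, so no single share could reach 0.05.

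In Clgn the share was 51.6%, 46.8% and 50.9% in P/D spermatocytes and 72.4%, 70.9% and 71.2% in RS (exact permutation p = 0.1), and the groups were well apart. In Calr it was 34.0%, 23.7% and 24.7% in P/D spermatocytes and 65.8%, 63.5% and 70.4% in RS (exact permutation p = 0.1). In Pdia3 the order was opposite, with 52.2%, 51.9% and 51.6% in P/D spermatocytes and 30.7%, 38.7% and 38.6% in RS (exact permutation p = 0.1). The share of Pdia3 reads in the class below was 35.9% to 38.5% in P/D spermatocytes and 37.6% to 48.9% in RS, and that of reads of 210 nt or more was 8.27% to 12% and 19.7% to 23.8%.

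In RS, 41.4%, 41.4% and 56.6% of Hsp90b1 reads and 43.5%, 44.4% and 58.6% of Pdilt reads had tails of 210 nt or more. Over all reads of the RS samples this share was 9.24% to 10.8%. For Pdia6 the share of 120 to 210 nt overlapped between the cell types, with 38.0%, 45.7% and 41.5% against 56.2%, 40.7% and 41.7%, while that of 210 nt or more was 6.52% to 10% in P/D spermatocytes and 18.8% to 39.6% in RS. The cell types were therefore apart in the longest class and not in the middle one.

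Levels are given as gene-level CPM (counts scaled to the same fixed total in each sample, with TMM normalization), and changes as log2 fold changes of RS over P/D from edgeR's quasi-likelihood test. Of the 8 genes that passed the filter on low counts, 1 (Pdilt) was higher in RS and 6 (Clgn, Calr, Hspa5, Hsp90b1, Pdia3 and Pdia6) were lower, at an adjusted p of 0.05 over 4934 genes. Over all genes tested, 33.9% were higher and 32.5% lower in RS. The lower genes include all general chaperones but Canx. A filter of at least 10 counts in every sample, which also changes the normalization factors, moved the fold changes of the 7 members it kept by 0.15 upwards and left 3 of them lower (Calr, Hsp90b1 and Pdia3).

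**Figure D3:**
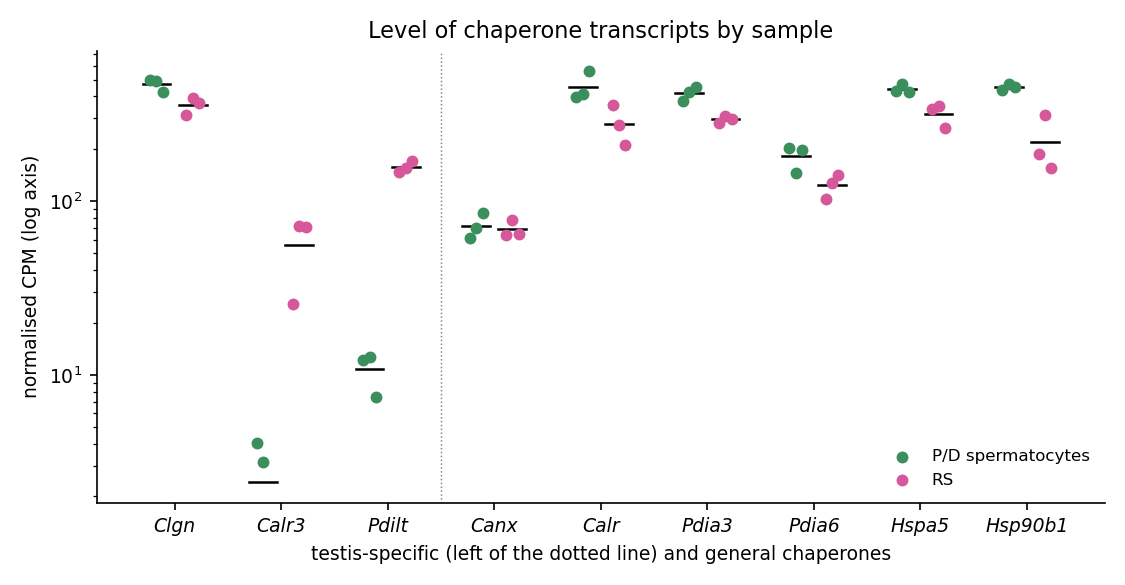
Level of each chaperone gene in normalised CPM (vertical log axis) in the 3 P/D samples (green) and the 3 RS samples (pink), with the group mean as a black line. Calr3 and Pdilt sit higher in RS, the other genes differ less and mostly sit lower in RS, and the P/D sample of Calr3 with 0 reads is not drawn but is in its mean.

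Pdilt had 12.2, 12.7 and 7.44 CPM in P/D spermatocytes and 147, 156 and 171 in RS. Each RS value was more than 10 times each P/D value, with a log2 fold change of 3.83 (SE 0.345, edgeR, adjusted p = 1.18e-14). With 3, 4 and 2 P/D reads, Pdilt passed the filter on low counts through its RS reads alone, so a gene at this P/D level could be tested only where it was higher in RS. As raw reads this was 9 of 821280 in P/D spermatocytes and 176 of 1147356 in RS, a ratio of 14 (95% exact interval 7.21 to 31.1, counting error only). Calr3, with 65 RS reads (8, 33 and 24 by sample) and 2 P/D reads, did not pass the filter. Its ratio was 23.3 (95% exact interval 6.19 to 196). The round spermatid marker genes, all 6 of which were higher in RS by edgeR, had a median log2 fold change of 3.42.

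Clgn had 496, 488 and 424 CPM in P/D spermatocytes and 313, 394 and 368 in RS. Every RS sample was below every P/D sample, and the level fell by 0.37 on the log2 scale (SE 0.135, edgeR, adjusted p = 0.0140). This call was lost with DESeq2 (adjusted p = 0.0988) and without P/D replicate 1 (0.0966), P/D replicate 2 (0.0886) or RS replicate 1 (0.0849). Clgn was the highest of the testis-specific members in both cell types.

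Hsp90b1 had 435, 472 and 454 CPM in P/D spermatocytes and 186, 314 and 156 in RS. RS replicate 2 was the highest of the RS samples and still below every P/D sample, and the level fell by 1.0 on the log2 scale (SE 0.164, edgeR, adjusted p = 3.35e-07). Calr had 394, 415 and 558 CPM in P/D spermatocytes and 355, 273 and 209 in RS, with no overlap, and fell by 0.71 (SE 0.155, edgeR, adjusted p = 7.17e-05). Both genes were called lower under every alternative run for counts.

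Hspa5 had 431, 472 and 424 CPM in P/D spermatocytes and 339, 353 and 265 in RS. It fell by 0.46 on the log2 scale (SE 0.140, edgeR, adjusted p = 0.00345), and by 0.31 with at least 10 counts in every sample, where it was not called (adjusted p = 0.0552). Pdia3 had 374, 421 and 454 CPM in P/D spermatocytes and 282, 307 and 297 in RS and fell by 0.49 (SE 0.141, edgeR, adjusted p = 0.00218). In both genes the samples of the cell types were apart.

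Pdia6 had 203, 146 and 197 CPM in P/D spermatocytes and 102, 128 and 141 in RS. The RS samples were below the P/D samples, and the level fell by 0.52 on the log2 scale (SE 0.200, edgeR, adjusted p = 0.0186), but the call was lost with DESeq2 (adjusted p = 0.104) and without P/D replicate 1 (0.126), P/D replicate 3 (0.0921) or RS replicate 1 (0.0800). Canx had 61.0, 69.7 and 85.5 CPM in P/D spermatocytes and 64.0, 77.9 and 64.7 in RS. It was the lowest of the general chaperones in both cell types, the groups overlapped, and its log2 fold change was -0.04 (SE 0.268, edgeR, adjusted p = 0.901).

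**Figure D4:**
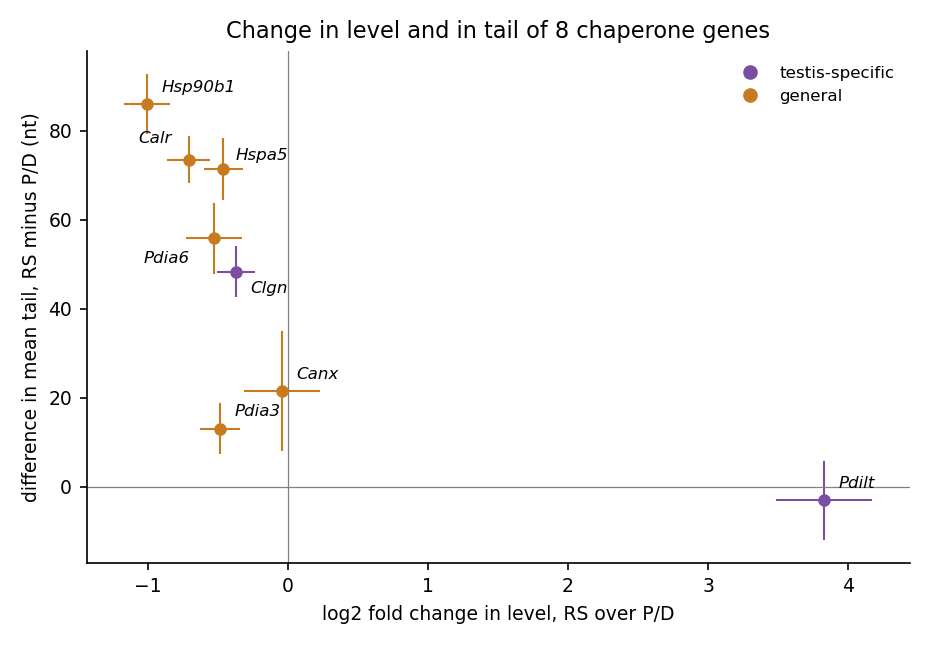
Difference in mean tail in nt (vertical axis, RS minus P/D) against the log2 fold change in level (horizontal axis, RS over P/D) of the 8 chaperone genes tested for both, with bars of 1 SE. Hsp90b1 has the largest tail difference (85.9 nt) and the lowest fold change (-1.0), and Pdilt stands apart at 3.83 with a tail difference of -3.0 nt.

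Of the 6 genes with lower levels in RS, 5 also had longer tails there, and the exception was Pdia3, whose tail difference did not pass. Both measures come from the same reads, so they are not independent, and no test was made across the members. The share of all lower genes that also had longer tails was not computed, so the count of 5 of 6 has no background beside it. That count rests on the fit over 5367 genes, of which 54.9% had longer tails whatever their level. A separate limma fit of the 1876 genes that reached 20 reads in all samples called 1614 longer in RS. In that fit Pdia3 was called longer too (limma, adjusted p = 0.0257). Pdilt had a higher level and tails above 200 nt in both cell types.

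By class, and as raw reads over all reads, the testis-specific genes together had 516, 520 and 428 CPM in P/D spermatocytes and 480, 605 and 581 in RS. The ranges overlapped (exact permutation p = 0.3). The general chaperones had 1914, 2059 and 2152 in P/D spermatocytes and 1311, 1414 and 1081 in RS, without overlap (exact permutation p = 0.1, the smallest possible). The testis-specific share of chaperone reads was 21.2%, 20.2% and 16.6% in P/D spermatocytes and 26.8%, 30% and 35.0% in RS (exact permutation p = 0.1). Clgn made up 96.8%, 96.9% and 98.3% of testis-specific reads in P/D spermatocytes and 64.5%, 63.4% and 60.4% in RS (exact permutation p = 0.1), with Pdilt and Calr3 as the rest.

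**Figure D5:**
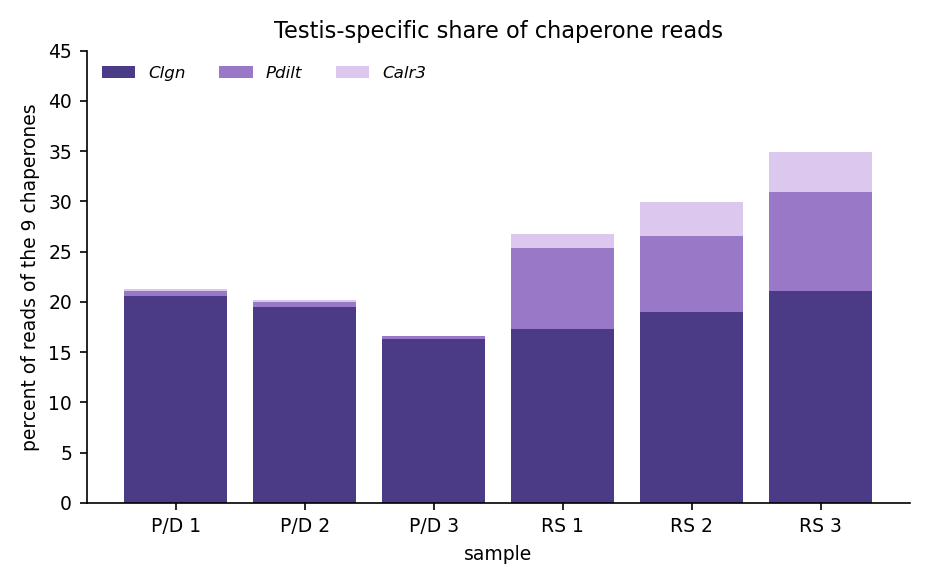
Reads of Clgn, Pdilt and Calr3 as stacked percentages of all reads of the 9 chaperones (vertical axis, from 0) in each of the 6 samples (horizontal axis). The whole stack reaches 16.6% to 21.2% in P/D samples and 26.8% to 35.0% in RS samples, and in RS the Pdilt and Calr3 segments are added to a Clgn segment of similar height.

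The mean tail of testis-specific reads was 152, 142 and 136 nt in P/D spermatocytes and 196, 194 and 196 nt in RS. That of general chaperone reads was 125, 116 and 116 nt and 172, 178 and 179 nt. Testis-specific reads thus had the longer mean in all 6 samples, but in P/D spermatocytes 96.8% to 98.3% of them were Clgn reads. By gene the classes overlapped. In P/D spermatocytes the group mean was 141 nt for Clgn and 98.5 (Calr) to 154 nt (Canx) for the general chaperones. In RS it was 179 (Calr3) to 215 nt (Pdilt) for the testis-specific genes and 152 (Pdia3) to 214 nt (Hsp90b1) for the general ones. In both classes the RS samples all lay above the P/D samples (exact permutation p = 0.1 for each class).

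Each testis-specific gene was set against its general relative within the same sample, in 3 pairs. The mean tail of Clgn minus that of Canx was -4.73, -40.7 and 7.02 nt in P/D spermatocytes and 9.60, 19.1 and 13.2 nt in RS (exact permutation p = 0.1, adjusted 0.1). The log2 ratio of Clgn to Canx reads was 2.98, 2.78 and 2.28 in P/D spermatocytes and 2.26, 2.32 and 2.48 in RS, overlapping ranges (exact permutation p = 0.3, adjusted 0.3). Clgn reads outnumbered Canx reads in every sample.

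For Pdilt minus Pdia3 the tail difference was 89.7, 80.4 and 68.3 nt in P/D spermatocytes and 62.1, 66.9 and 61.3 nt in RS (exact permutation p = 0.1, adjusted 0.1), so Pdilt had the longer tails in every sample. The log2 ratio of Pdilt to Pdia3 reads went from -5.08 ± 0.473 to -0.90 ± 0.0934 (SD, n = 3, exact permutation p = 0.1, adjusted 0.15). The log2 ratio of Calr3 to Calr reads went from -6.90 ± 1.17 to -2.39 ± 1.16 (SD, n = 3, exact permutation p = 0.1, adjusted 0.15). In RS the mean tail of Calr3 minus that of Calr was 12, -2.98 and 11.9 nt, and in P/D spermatocytes Calr3 had too few reads for this difference to be tested.

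At the level of single contigs, the mean tail was longer in RS for 8 of the 12 contigs tested and shorter for 0 (limma, 6990 contigs, of which 54.2% were longer and 1.69% shorter). Levels were higher for 1 and lower for 6 of 11 contigs (edgeR, 6005 contigs, of which 32.6% were higher and 30.8% lower). Clgn, Hspa5 and Canx each have 2 contigs that differ in the length of the 3′UTR. Calr3 ENSMUST00000109974, with 0 P/D reads and 3 RS reads, was not tested. The annotation places another gene on the same strand over part of Calr3 (Gm3835, 403 nt), Pdilt (Gm26967) and Hsp90b1 (Gm15344), and how reads were divided there was not tested.

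The Clgn contigs ENSMUST00000002259 and ENSMUST00000109831 share a coding length of 1833 nt and have 3′UTRs of 1946 and 225 nt. Their tails rose by 48.7 nt (SE 6.16, limma, adjusted p = 0.00108) and 48.2 nt (SE 6.60, limma, adjusted p = 0.00143). The long contig had 93, 116 and 85 reads in P/D spermatocytes and 76, 126 and 81 in RS, and fell by 0.50 on the log2 scale (edgeR, adjusted p = 0.00418). The short one had 29, 38 and 29 reads and 22, 56 and 44 reads, with a log2 fold change of -0.10 (edgeR, adjusted p = 0.725). Its share of Clgn reads was 23.8%, 24.7% and 25.4% in P/D spermatocytes and 22.4%, 30.8% and 35.2% in RS, which overlapped (exact permutation p = 0.4), so the contigs were not shown to differ.

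The Hspa5 contigs ENSMUST00000028222 and ENSMUST00000100171 have 3′UTRs of 1434 and 418 nt, and their tails rose by 73.2 nt and 70.1 nt. The long one fell by 0.70 on the log2 scale (edgeR, adjusted p = 0.000353), and the short one had a log2 fold change of -0.02 (edgeR, adjusted p = 0.948). The share of the short contig was 21.7%, 25.5% and 33.3% in P/D spermatocytes and 33.0%, 38.0% and 40.0% in RS (exact permutation p = 0.2). The highest P/D value lay just above the lowest RS value.

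The Canx contigs ENSMUST00000020637 and ENSMUST00000179865 have 3′UTRs of 1815 and 2321 nt. The tail of the longer contig rose by 41.2 nt (SE 7.77, limma, adjusted p = 0.00507), on 7 to 16 reads per sample, with P/D means of 133, 148 and 127 nt and RS means of 174, 185 and 173 nt. That of the other differed by 12.3 nt (SE 21.4, limma, adjusted p = 0.655), on 5 to 20 reads per sample. Neither level was called, and the share of the first contig overlapped between the cell types (exact permutation p = 0.2).

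The other genes of the pathway give the setting. Of 20 tested genes of the other ER folding factors, 6 were higher and 8 lower in RS (median log2 fold change -0.02, against -0.03 over all genes), and 16 of 21 had longer tails and 0 shorter ones (median difference 62.7 nt, against 35.0 nt). Over all genes tested 33.9% were higher, 32.5% lower and 54.9% longer. Higher were Creld2, an ER stress protein (0.98, adjusted p = 2.33e-07), Dnajb9, a partner of Hspa5 (0.92, adjusted p = 4.26e-05), and Manf (0.42, adjusted p = 0.0127), all by edgeR. Lower were Sdf2l1, a subunit of ER chaperone complexes (-2.91, adjusted p = 9.38e-15), Mesd, the chaperone of lipoprotein receptors (-2.18, adjusted p = 2.66e-13), and Dnajb11, another Hspa5 partner (-1.21, adjusted p = 4.16e-05). The tail of Creld2 rose by 89.9 nt (limma, adjusted p = 0.000281), and that of Dnajb9 differed by -0.14 nt (limma, adjusted p = 0.984).

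Of 18 tested genes of ER-associated degradation, which removes misfolded proteins, 6 were higher and 4 lower (median 0.16), and 11 of 18 had longer tails (median 35.0 nt). The shares over all genes tested were 33.9% higher, 32.5% lower and 54.9% longer, with medians of -0.03 and 35.0 nt. Herpud2 (2.16, adjusted p = 4.74e-06), Ufd1 (1.65, adjusted p = 1.87e-07) and the ubiquitin ligase Rnf139 (1.5, adjusted p = 1.26e-11) were the highest by edgeR, and Vcp, the ATPase that extracts proteins from the membrane (-1.05, adjusted p = 1.43e-06), Ube2j2 (-0.85, adjusted p = 3.55e-05) and Nploc4 (-0.83, adjusted p = 0.00375) the lowest. Herpud2, with 2, 6 and 3 P/D reads, passed the filter on low counts through RS alone. The tail of the ubiquitin-conjugating enzyme Ube2j1 rose by 49.0 nt (limma, adjusted p = 0.00106), and that of Ube2j2 differed by 5.99 nt (limma, adjusted p = 0.575). Of the unfolded protein response, 3 genes were tested for levels, with 1 higher and 2 lower (median -1.39) and 1 of 3 longer (median 28.3 nt). Creb3l4, a membrane-bound transcription factor, was higher (2.98, edgeR, adjusted p = 1.21e-20). Ddit3 (CHOP) was lower (-1.39, edgeR, adjusted p = 4.03e-09), and its tail rose by 67.1 nt (limma, adjusted p = 0.000575).

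The promoter element was also in 6 measured genes that are no members. Of these, 4 were tested, with 2 lower and 1 (Creld2) higher in RS, 3 with longer tails and 1 with a shorter tail (Hnrnpa3, -44.2 nt, limma, adjusted p = 0.00788, named after its value was seen). Of the 5 members with the element, 4 were lower and 4 had longer tails, and Canx was called for neither. Over all genes tested 32.5% were lower and 54.9% had longer tails, and no link between the element and the calls was tested.

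Of the sperm surface proteins that depend on or act beside these chaperones, 8 of 13 tested genes were higher in RS and 3 lower (median log2 fold change 3.11), and 5 of 13 had longer tails (median 8.69 nt). Over all genes tested 33.9% were higher, 32.5% lower and 54.9% longer, with medians of -0.03 and 35.0 nt. Spam1 (4.21, adjusted p = 4.67e-12), Izumo1, which binds the egg membrane (3.62, adjusted p = 1.38e-09), and Adam1a (3.32, adjusted p = 5.01e-15) were the highest by edgeR. Their P/D reads were 3, 1 and 1 for Spam1, 2, 2 and 1 for Izumo1 and 4, 8 and 4 for Adam1a. They passed the filter on low counts through RS alone, so genes at such P/D levels could be tested only where higher in RS. The reverse holds for Tex101, with 3, 2 and 4 RS reads. Tex101 (-4.96, adjusted p = 1.08e-20), Ly6k (-0.77, adjusted p = 3.38e-05) and Adam2 (-0.36, adjusted p = 0.0106) were the lowest. The tail of Ly6k rose by 97.3 nt (limma, adjusted p = 0.000246), and that of Adam3 by 15.5 nt (limma, adjusted p = 0.0379), the smallest difference among those with 20 or more reads in all samples.

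The genes with the profile nearest to that of a testis-specific member were found by the root mean square difference of log2 levels, each gene centred on its own mean over the 6 samples, among 1876 genes with at least 20 reads in every sample. For Pdilt these were Gsg1 (0.141), Oaz3 (0.162) and Irgc1 (0.167), for Calr3 Irgc1 (0.440), Gsg1 (0.453) and Dpy30 (0.483), and for Clgn Dtymk (0.0683), AA467197 (0.0767) and Sugp2 (0.0790). Among these candidates, Gsg1 and Irgc1 were near both Pdilt and Calr3. Pdilt and Calr3 did not reach 20 reads in every sample themselves, so genes with P/D reads as few as theirs could not be listed. With the prior count used for these levels, their own RS minus P/D differences were 3.29 and 2.78. The distances of Calr3 are larger, with 8 reads in RS replicate 1.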

How the data were processed

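The authors purified poly(A) RNA, sequenced it natively on nanopore R9 flow cells, made base calls and split the barcodes, mapped the reads by minimap2 (version 2.20-r1061 in the submitters' processing notes, another version in the methods) to GENCODE transcripts of GRCm38 (mm10), and estimated tails with Nanopolish. The authors deposited raw counts of reads per contig, without normalization, and other values, the estimated tail in nt of every read, which carry no normalization. Both tables gave equal counts for 12114 of 12114 contigs. A tail estimate depends on the basecalled signal, and the 2 libraries split by cell type.

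Members were matched by the symbol in the deposited table. Contigs were grouped into genes by their GENCODE vM21 gene name, or by the deposited symbol where they had none. Positions also came from GENCODE vM21, which held 11344 of the 11517 annotated contigs. The 597 repeat contigs were left out of the tests. Of 678 Pdia3 reads, 3 were also listed on another contig.

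limma 3.58.1 in R 4.3.3 (functions lmFit and eBayes) was used for mean tails where at least 10 reads were present in 2 replicates of a cell type and a mean in 2 of each. For counts the quasi-likelihood test of edgeR 4.0.16 was used after filterByExpr and TMM, and DESeq2 1.42.0 was tried in its place. Both were fitted over all contigs and over all genes, with Benjamini-Hochberg adjustment at 0.05, and checked on simulated data. A prior count of 2 was used for log2 levels in the profile distances, and 0.5 was added to counts in the ratios of pairs. Values with 1 number per sample were compared by two-sided exact permutation. The rate ratios have 95% exact intervals. With 244004 to 474688 reads per sample, 10 reads are a low level, and intervals cover counting error alone. Other steps ran in Python 3.11.15 with pandas 2.3.3, scipy 1.17.1, numpy 2.4.6 and matplotlib 3.10.9.

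The members, gene lists and tests were chosen with earlier results of these data known. Named were the members, of each list the 3 highest and 3 lowest called genes that reached 20 reads in all samples of the higher cell type and those with the largest and smallest tail difference, and the 3 nearest profiles. The alternatives were other filters, scales, tests, weights, tail ranges, normalizations, class bounds, the replicate number as a block and leaving out each sample.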

Additional observations from a re-analysis of the deposited data

How the results depend on the processing

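Of 528 alternative values for single contigs and genes, 486 kept their direction and their side of the threshold, 8 passed it only under the alternative, 19 passed it only in the fit reported, and 15 changed sign, all of them on values that were called neither in the fit reported nor under the alternative. With at least 10 counts in every sample, the log2 fold change was 0.18 for the short Hspa5 contig, 0.10 for the short Clgn contig and 0.11 for Canx, and the short Hspa5 contig had 0.0325 with DESeq2 and 0.0364 with its size factors in edgeR. Leaving out each sample gave -10.02 to 5.53 nt for the tail of Pdilt (gene and contig alike), -0.15 to 0.11 for the level of the short Hspa5 contig, -0.24 to 0.10 for the short Clgn contig and -0.16 to 0.12 for Canx. The cause was not tested. The number of contigs called higher in RS was 0 with at least 10 counts in every sample, where 8 contigs were tested, and 2 without a filter, and the number of genes was 0 (7 tested) and 2 (9 tested). Pdilt is removed by the first filter, and the second gene without a filter is Calr3 (4.37, edgeR, adjusted p = 1.34e-11). With at least 10 counts in every sample the number lower in RS was 3 for contigs and 3 for genes. That filter moved the fold changes of the 7 members tested by 0.15 to 0.16 on the log2 scale. Shifts were 0.037 to 0.038 with size factors of DESeq2 in edgeR, -0.061 to -0.057 with total counts and 0.016 to 0.086 with DESeq2. With tails of 120 to 180 nt in place of 120 to 210 nt, 2 genes had every RS share above every P/D share. The share of all genes was computed for 120 to 210 nt alone, so this count has no background beside it. Leaving out each sample gave 4 to 6 genes and 5 to 6 contigs called lower, 5 to 6 genes and 8 contigs with longer tails, and 1 gene and 1 contig higher.

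The cell types share replicate numbers, and the study's reporting summary states that the germ cell types came from the same animals. It does not state whether a number marks the same pool of mice in both. Deviations of same-numbered samples from their group means correlated over 1876 genes at 0.067, 0.260 and 0.067 for counts and at -0.0099, 0.105 and -0.0073 for tails, which did not settle this, and the fits reported have no block. With the replicate block, 5 genes and 8 contigs had longer tails, 6 genes and 6 contigs were lower and 1 gene and 1 contig higher, and no call on a member changed. For counts, P/D replicate 1 correlated best with RS replicate 3, so not every sample correlated best with its own number.

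Depth limits the statements on Calr3 and Pdilt, which had 2 and 9 P/D reads, and on the Canx contigs with 5 to 20 reads per sample.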
